A study of Mus musculus with 8 samples.

Results

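Some Ezh2 sites in TT2 mouse embryonic stem cells were called in just 1 of 3 Ezh2 libraries and also carried a G9a peak, and these sites are described here. Ezh2 is the enzyme of Polycomb repressive complex 2 (PRC2). A site was taken when a peak of wild-type Ezh2 library 1 on chromosomes 1 to 19 overlapped a wild-type G9a peak by at least 1 bp and overlapped no peak of wild-type Ezh2 library 0 or of the knockout Ezh2 library. There were 1158 such sites, 9.99% of the 11593 library 1 peaks on these chromosomes. They are called the Ezh2-G9a sites below. The other 7269 peaks found in library 1 alone had no wild-type G9a peak and serve as the comparison. The sites were chosen by measured values, the presence or absence of a called peak in 4 lists, so their G9a overlap and their absence from the other Ezh2 lists are the rule itself and not results. The rescue G9a list played no part in the choice.

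PRC2 places methyl groups on lysine 27 of histone H3, a mark of silenced developmental genes in embryonic stem cells. G9a and GLP (G9a-like protein) act as a pair and place mono- and dimethyl marks on lysine 9 of histone H3, a mark of silent chromatin outside the main heterochromatin blocks. The study that made these libraries concerns how the H3K9 enzymes bear on PRC2 silencing, per its title.

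The wild-type cells were TT2, a stem cell line from a C57BL/6 by CBA cross, and gave Ezh2 libraries 0 and 1 and 1 G9a library, numbered 1. Cells of the same line that were G9a-/- and GLP-/- gave 1 Ezh2 library, numbered 0. The same knockout cells given back wild-type G9a gave 1 G9a library, numbered 1 and called the rescue. By its label the rescue still lacked GLP. The lists that a site had to be in were thus numbered 1, and the lists it had to be absent from were numbered 0. Library number cannot be told apart from these choices. No drug treatment is given for any group, and all cells grew in serum with LIF. The labels do not say how many clones each genotype came from or how the rescue G9a was expressed, and they do not tie the 2 wild-type Ezh2 libraries to separate cultures. Each library is 1 list of peaks with a score from the authors' peak caller, on the mm9 build. Read counts are not part of a list, and the sequencing depth behind it is therefore unknown.

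The lists differ in length and in their lowest score. On chromosomes 1 to 19 there were 5342, 11593 and 6174 Ezh2 peaks in library 0, library 1 and the knockout, and 67077 and 83433 G9a peaks in the wild type and the rescue. The lowest score was 30 in Ezh2 library 1, against 43.02 in library 0 and 43.03 in the knockout, and 20 in each G9a list. Whether a given score means the same in separate lists was not tested. Every condition but wild-type Ezh2 has 1 library, and the rule used both wild-type Ezh2 libraries, so no test over samples was possible and all differences below are descriptions of these lists. Intervals are exact 95% binomial intervals. They treat peaks as independent, which neighbouring peaks are not, and they do not cover variation between cultures.

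Most of the Ezh2-G9a sites were weak calls, and a few scored higher. The library 1-only peaks lacking G9a had a slightly lower median score still. The library 1 scores of the sites ran from 30.01 to 643.42 with a median of 47.47 (quartiles 35.79 and 85.09). Over all library 1 peaks the median was 58.27 (quartiles 36.51 and 193.42) and the highest score was 3233.06. Of the 1158 sites, 495 scored under 43.03, the lowest score in the knockout list, and 236 (20.4%) scored 100 or more. Only 33 sites (2.85%) scored 300 or more. Of the 7269 library 1-only peaks lacking G9a, 3599 scored under 43.03, 16.5% scored 100 or more and 1.62% scored 300 or more. In the order of library 1 scores the best site stood at rank 1348 and the median site at rank 6765 of 11593. If library 1 had been as short as the library 0 list, 368 sites (31.8%; 29.1 to 34.5) would have been on it. The score scales of separate lists may differ, so these counts do not show what library 0 or the knockout would have called at the same level.

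The share of library 1-only peaks with wild-type G9a was close to that of library 1 as a whole. It was 13.7% (1158 of 8427; 13.0 to 14.5), against 14.4% of all library 1 peaks. Peaks found in library 1 and library 0 but not in the knockout had wild-type G9a in 15.8% of cases (150 of 951), those in library 1 and the knockout only in 15.6% (89 of 570), and those in all 3 Ezh2 lists in 16.6% (273 of 1645). Those classes were much wider, and wide peaks meet other peaks more often by their length alone. Among peaks from 1000 bp up to 2000 bp wide, the G9a share was 17.9% (255 of 1425; 15.9 to 20.0) for library 1-only peaks. At that width it was 14.3% (63 of 440) for peaks shared with library 0 only, 17.3% (47 of 271) for those shared with the knockout only, and 12.2% (42 of 345; 8.92 to 16.1) for those in all 3 lists. Over 4 width ranges from 300 to 4000 bp, the library 1-only share was the higher in 10 of 11 comparisons with these classes. The exception was the range from 300 to 500 bp, where 17.9% of peaks shared with the knockout only had G9a (7 of 39) against 10.7% (332 of 3091). In most of the comparisons the intervals overlapped. The comparisons within a range all used the same library 1-only peaks, and chromosomes were not matched.

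Sites with G9a were wider than library 1-only peaks without it. The widths of the Ezh2-G9a sites ran from 161 to 3760 bp with a median of 635.5 bp (quartiles 443 and 1026). The peaks lacking G9a had a median of 545 bp (394 and 848). The 2 distributions overlapped over nearly all of their range, and 26.4% of the sites against 18.2% of the other peaks reached 1000 bp. The median width was larger with G9a on 15 of the 19 chromosomes. It was larger in each of the 10 score deciles, by 8 to 122 bp. From the narrowest to the widest 10% of library 1-only peaks, the share with G9a went from 9.37% (79 of 843) to 20.0% (169 of 843). Since width bears on whether 2 peaks meet, this difference is part of what the rule selects.

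Ezh2 scores were a little higher with G9a before width was taken into account, and not afterwards. The median score was 47.47 with G9a and 43.37 without, and it was higher with G9a on 14 of 19 chromosomes. Within width deciles it was higher with G9a in 3 of 10, the narrowest 3, and lower in the other 7. In the ninth decile (983 to 1315 bp) the medians were 91.14 with G9a and 100.22 without, and in the eighth they were 64.94 and 72.77. Over the sites, the score in library 1 and the score of the G9a peak had a Spearman rank correlation of -0.01 (1158 sites, each pair from the same 2 libraries), while Ezh2 score and Ezh2 width had one of 0.74.

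**Figure D1:**
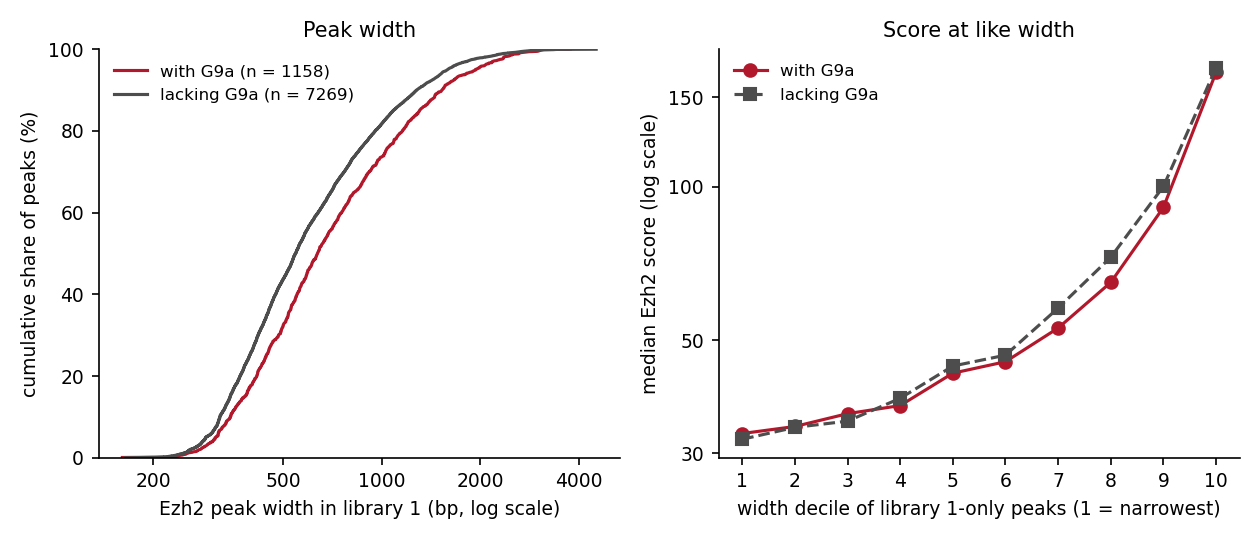
Left, the cumulative share of library 1-only Ezh2 peaks (vertical, %) by width (horizontal, bp, log scale) for the 1158 peaks with wild-type G9a and the 7269 lacking it. Right, the median Ezh2 score (vertical, log scale) of the same 2 groups in each width decile. The width curve with G9a lies to the right of the other, with medians of 635.5 and 545 bp, while at like width the scores with G9a are higher in only the 3 narrowest deciles.

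Most G9a peaks were centred close to the centre of the Ezh2 site. The median distance between the centre of a site and the centre of its nearest overlapping wild-type G9a peak was 239.75 bp (quartiles 98.75 and 466). In 592 sites (51.1%) it was 250 bp or less, and in 49 sites (4.23%) it was over 1000 bp. A pair of peaks can overlap only while their centres are closer than the mean of their widths, and the median distance was 31.3% of that limit. The G9a centre fell inside the Ezh2 peak in 736 sites (63.6%). The Ezh2 peak lay wholly inside the G9a peak in 282 sites, the G9a peak lay wholly inside the Ezh2 peak in 141, and in 735 the peaks were staggered. The overlap covered a median of 72.5% of the Ezh2 peak. Of all sites, 34 touched 2 or more wild-type G9a peaks.

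**Figure D2:**
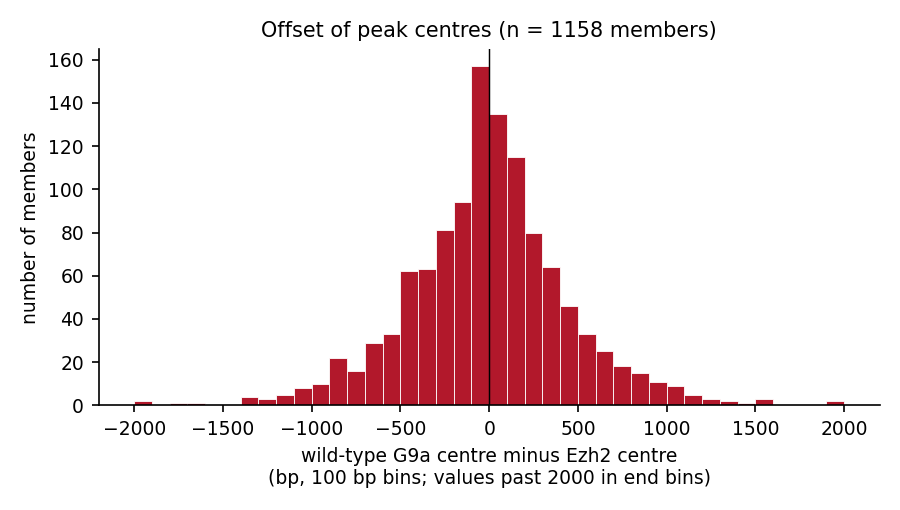
Number of Ezh2-G9a sites (vertical) by the offset from the Ezh2 centre to the centre of the nearest overlapping wild-type G9a peak (horizontal, bp, in bins of 100 bp, with values past 2000 bp in the end bins). The offsets pile up around 0 and thin out to either side, with 592 of 1158 sites within 250 bp.

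In sites shared with other Ezh2 lists the centres lay farther apart. The median centre distance was 893.5 bp in the 273 G9a-carrying peaks of all 3 Ezh2 lists, 468.5 bp in the 150 shared with library 0 only and 385.5 bp in the 89 shared with the knockout only. Their Ezh2 peaks were wider, with medians of 3272, 1842 and 1287 bp. As a share of the largest distance at which the peaks could still overlap, the medians were 47.7%, 34.1% and 35.3%, against 31.3% in the Ezh2-G9a sites. The G9a peak covered a median of 17.8% of the Ezh2 peak in sites of all 3 lists.

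At the limit of the rule, the smallest overlaps were 2 bp at chr18:67502271-67503789 and 7 bp at chr1:167693837-167694899 and at chr18:37834172-37834782. Just outside it, the peaks chr18:66628651-66629052, chr1:157596749-157597491 and chr1:171677487-171678197 missed a G9a peak by 2, 3 and 3 bp. The Ezh2 scores were 117.1, 50.43 and 41.54 inside the limit and 31.66, 31.93 and 82.1 outside it. In all, 47 sites (4.06%) overlapped G9a by 50 bp or less, and 797 of the peaks lacking G9a had a G9a peak within 1 kb. On the Ezh2 side, 123 sites (10.6%) had a library 0 or knockout Ezh2 peak within 1 kb without touching it. The nearest, at chr18:37099281-37100049, lay 36 bp from a knockout peak.

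Rescue G9a, which the rule did not use, was called at the Ezh2-G9a sites more often than at the peaks lacking wild-type G9a. A rescue peak overlapped 470 of the 1158 sites (40.6%; 37.7 to 43.5) and 818 of the 7269 other peaks (11.3%, with an upper bound of 12.002%), a difference of 29.3 points. The share was 15.3% over all library 1-only peaks and 16.4% over all library 1 peaks. It was higher with wild-type G9a on 19 of 19 chromosomes. It was also higher in all 10 width deciles, by 24.4 to 36.9 points, and in all 10 score deciles, by 22.8 to 39.0 points. With the other peaks weighted to the widths of the sites, their share was 11.97%.

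**Figure D3:**
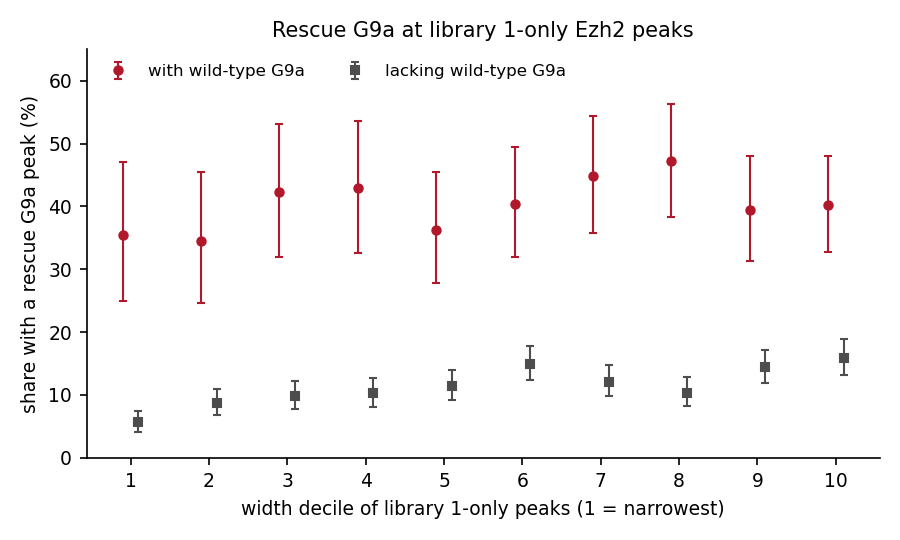
Share of library 1-only Ezh2 peaks that overlap a rescue G9a peak (vertical, %) in each width decile (horizontal), for peaks with wild-type G9a and peaks lacking it. Bars are exact 95% binomial intervals over peaks. The points with wild-type G9a stay above those lacking it in all 10 deciles, by 24.4 to 36.9 points.

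The rescue peaks at the Ezh2-G9a sites were also stronger than at the peaks lacking wild-type G9a. Their median score was 51.27 in the 470 sites, against 29.14 at the 818 peaks that lacked wild-type G9a and 26.86 over all rescue peaks. At the other library 1 peaks with wild-type G9a it was 47.0 (all 3 Ezh2 lists), 42.44 (shared with library 0 only) and 34.75 (shared with the knockout only). Rescue scores above that of the whole list were therefore not particular to the Ezh2-G9a sites. The median distance from the Ezh2 centre to the rescue centre was 271.75 bp at the sites and 228 bp at the other peaks. Among the sites, rescue G9a went with the strength of the wild-type G9a peak. Split into 4 equal groups by wild-type G9a score, in the lowest (20.03 to 25.90), 69 of 290 sites (23.8%) had rescue G9a. In the next groups the counts were 94 of 289 (32.5%) and 124 of 289 (42.9%), and in the highest (68.39 to 2114.11) 183 of 290 (63.1%; 57.3 to 68.7). Sites with and without rescue G9a had median wild-type G9a scores of 54.33 and 31.91. Their Ezh2 peaks differed less, with median scores of 51.82 and 45.29 and median widths of 660.5 and 617.5 bp.

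With wild-type G9a, the rescue share was higher in peaks of all 3 Ezh2 lists than in the Ezh2-G9a sites (40.6%; 37.7 to 43.5). It was 43.8% (39 of 89) for peaks shared with the knockout only, 44.7% (67 of 150) for those shared with library 0 only, and 52.0% (142 of 273; 45.9 to 58.1) for those in all 3 lists, which were the widest. Without wild-type G9a the shares in these classes were 10.6%, 13.6% and 15.2%. Higher rescue shares where wild-type G9a was called were therefore seen in every Ezh2 class and were not particular to the library 1-only sites. Chromosomes were not matched between the classes. Away from chromosomes 1 and 8, the share at the Ezh2-G9a sites was 48.8% (402 of 824; 45.3 to 52.3). That share was not computed for the other classes, so the difference between classes was not separated from chromosome.

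Seen from the G9a side, the peaks at these sites were a small and somewhat stronger part of the G9a list. The 1158 sites touched 1149 separate wild-type G9a peaks out of 67077, and 85 sites shared a G9a peak with another site. These 1149 peaks had a median score of 36.21 and a median width of 754 bp, against 31.64 and 613 bp in the 65372 G9a peaks that met no library 1 Ezh2 peak. A score of 100 or more was reached by 15.8% and 10.7%. By score decile of the G9a list, the share of G9a peaks that lay at Ezh2-G9a sites went from 1.54% in the lowest to 2.56% in the highest. Wide G9a peaks meet Ezh2 peaks more often by their length alone, so the greater width is part of what the rule selects. How far width bears on the differences in score was not tested.

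G9a peaks at the Ezh2-G9a sites were found again in the rescue list in 42.8% of cases (492 of 1149; 39.9 to 45.7), against 31.6% of G9a peaks away from library 1 Ezh2 peaks and 31.9% of the whole list. Away from library 1 Ezh2 peaks the share went from 13.7% in the lowest score decile to 75.9% in the highest, so the comparison was repeated within deciles. Weighted to the scores of the peaks at the sites, the share elsewhere was 35.5%, which leaves a difference of 7.28 points. The share at the sites was higher in 8 of 10 deciles. In the eighth decile it was 59.8% (79 of 132; 51.0 to 68.3) against 41.8%. In the seventh and the highest it was lower, at 28.8% against 32.9% and 74.4% against 75.9%. Weighted by chromosome as well as score, the share elsewhere was 32.8%. Weighted by the width of the G9a peaks alone it was 36.0%, and score and width were not weighted together. G9a peaks at library 1 Ezh2 peaks of the other classes had a like unweighted value, at 40.6% (226 of 556; 36.5 to 44.9). Of those 556 peaks 8.81% scored 100 or more, against 15.8% of the 1149 at the sites. These 2 sets were not compared at like score or by chromosome.

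**Figure D4:**
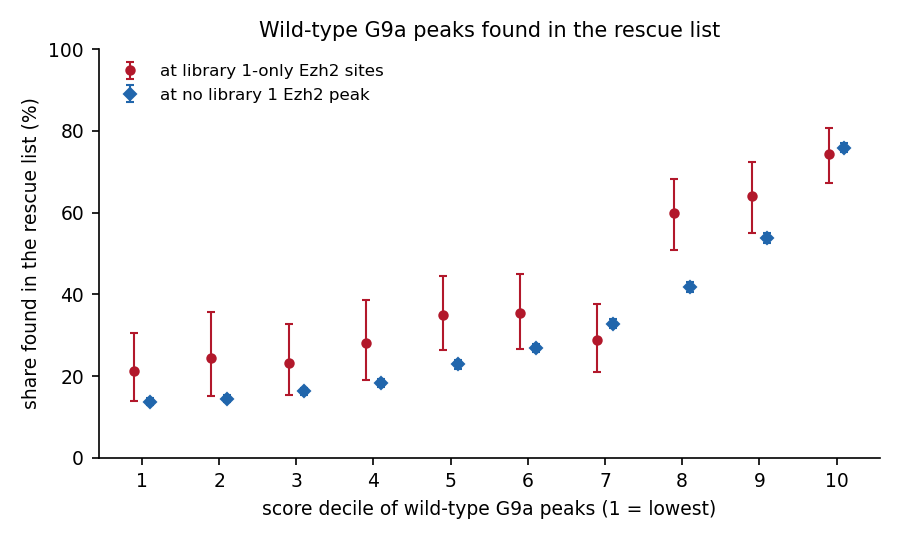
Share of the wild-type G9a list with a rescue peak (vertical, %) by score decile of the wild-type G9a list (horizontal), for the 1149 peaks at Ezh2-G9a sites and the 65372 peaks at no library 1 Ezh2 peak. Bars are exact 95% binomial intervals over peaks. The share is greater in the highest decile than in the lowest in both sets. Away from library 1 peaks it rises at every step, while at the sites it dips in the third and seventh deciles. The points at the sites are higher in 8 of 10 deciles, with the seventh and the highest as the exceptions.

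Chromosomes 1, 8 and 11 held more of these sites than their share of library 1-only peaks. They carried 491 of the 1158 sites (42.4%; 39.5 to 45.3), against 25.7% of the library 1-only peaks lacking G9a and 28.4% of all wild-type G9a peaks. These chromosomes were picked after their values were seen. The share of library 1-only peaks with G9a was 21.7% on chromosome 1 (196 of 905), 21.2% on chromosome 8 (138 of 651) and 19.5% on chromosome 11 (157 of 806). On the other 16 autosomes it ran from 7.52% to 13.5%, with a median of 10.8%, so none reached these 3. The same chromosomes were also higher among library 1 peaks that library 0 shared, at 22.9% (127 of 555) against 14.5% (296 of 2041). Wild-type G9a peaks were wider there, with a median of 775 bp against 573 bp elsewhere, and covered 19.4 Mb of the 53.5 Mb covered on all autosomes. The part that G9a coverage plays in the count of sites was not tested.

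Rescue G9a did not follow that pattern on chromosomes 1 and 8. The rescue list had 2262 and 1354 peaks there, against 8226 and 5186 in the wild type, and 7606 against 5620 on chromosome 11. Rescue G9a was found at 35 of 196 sites on chromosome 1 (17.9%) and 33 of 138 on chromosome 8 (23.9%). On the other 17 autosomes the share ran from 35.0% to 60.0%, with 49.0% (77 of 157) on chromosome 11. Away from chromosomes 1 and 8 the share was 48.8% (402 of 824; 45.3 to 52.3) at the sites and 12.8% (775 of 6047) at peaks lacking wild-type G9a, a difference of 36.0 points. On chromosomes 1 and 8 the values were 20.4% (68 of 334) and 3.52% (43 of 1222). The ratio of the shares was 3.81 and 5.79 in these 2 sets.

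**Figure D5:**
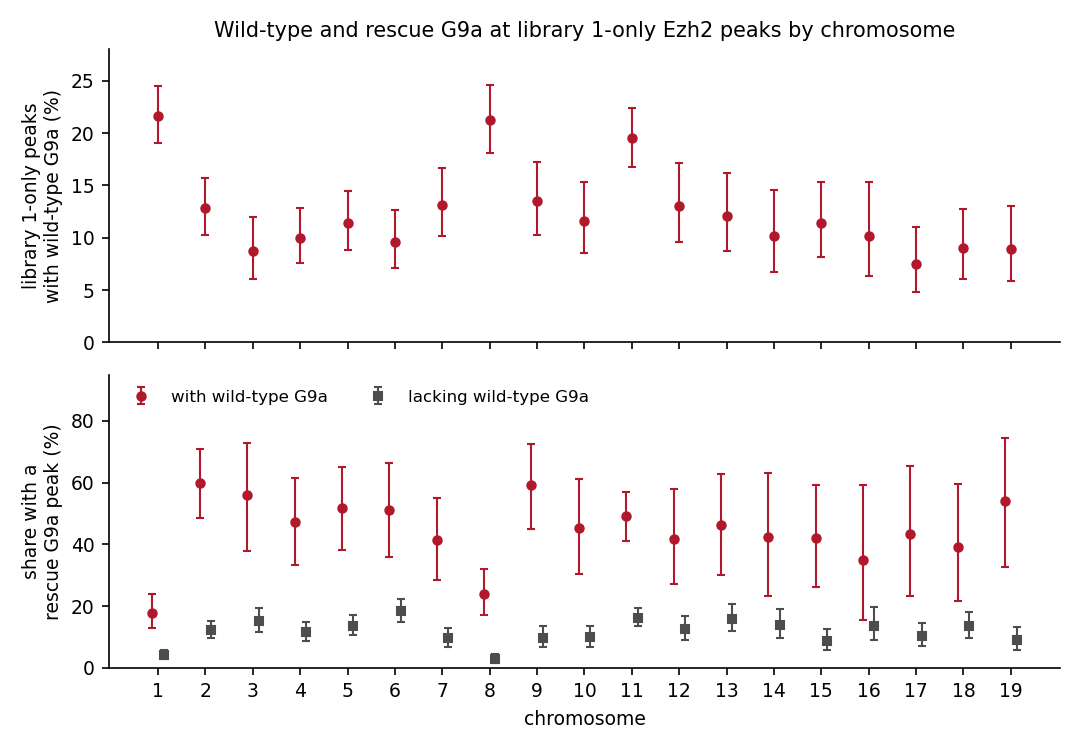
Top, the share of library 1-only Ezh2 peaks with wild-type G9a (vertical, %) on each autosome (horizontal). Bottom, the share with rescue G9a for library 1-only peaks with wild-type G9a and lacking it. Bars are exact 95% binomial intervals over peaks. Chromosomes 1, 8 and 11 stand highest at the top, at 21.7%, 21.2% and 19.5%, and chromosomes 1 and 8 stand lowest at the bottom in both groups.

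The Ezh2-G9a sites had another library 1 peak close by less often than the peaks lacking G9a, but not clearly so once adjacent peaks were merged. Another library 1 peak lay within 10 kb of 570 sites (49.2%; 46.3 to 52.1), against 56.8% of the peaks lacking G9a and 59.7% of all library 1 peaks. The median gap was 10307 bp and 3254 bp. A library 0 or knockout Ezh2 peak lay within 10 kb of 306 sites (26.4%), against 33.2% of the peaks lacking G9a; of all library 1 peaks, 50.8% lay on or within 10 kb of one. Within 100 kb the shares with a library 0 or knockout peak were close, at 60.4% and 59.5%. The comparison with library 0 and knockout peaks was not repeated on merged library 1 peaks. On 15 of 19 chromosomes the share with a library 1 neighbour within 10 kb was lower with G9a. Once library 1 peaks within 1 kb of each other were merged, the difference went from -7.62 points (-10.8 to -4.48) to -1.75 points (-4.72 to 1.35), an interval that includes 0. Split by distance, 11.2% of the library 1-only peaks within 10 kb of an Ezh2 peak of another list had G9a (306 of 2721), and 14.9% of those farther off (852 of 5706). Rescue G9a was found at 42.2% of the near sites and 40.02% of the far ones.

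Another Ezh2-G9a site lay close to the sites more often than to the other peaks, which is in part built into the rule. Another Ezh2-G9a site was within 10 kb of 196 sites (16.9%), and an Ezh2-G9a site was within 10 kb of 7.42% of the peaks lacking G9a. The first count includes the 85 sites that shared a G9a peak with another site. A G9a peak that spans neighbouring library 1-only peaks makes each of them a site. Neither this nor the larger share of the sites on chromosomes 1, 8 and 11 was taken out of the counts. Linked by gaps of at most 10 kb, 962 sites stood alone, and the rest formed 84 pairs, 6 groups of 3 and 2 larger groups. Over 10 Mb blocks, 225 of the 256 blocks with a library 1-only peak held at least 1 site, with a median of 3 sites. The richest block, starting at 80 Mb on chromosome 11, held 24 sites among 82 library 1-only peaks, and 14 of them had rescue G9a. The 10 richest blocks were all on chromosomes 1, 8 and 11 and held 178 sites.

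The largest group was 6 sites in 20151 bp at chr8:109172795-109192945. No other library 1 peak lay in this span, and the nearest library 0 or knockout Ezh2 peak was 302256 bp away. The 6 library 1 scores were, in order along the chromosome, 43.6, 89.66, 134.76, 243.42, 294.16 and 38.79. Each site had its own wild-type G9a peak, with scores of 123.64, 154.99, 418.8, 350.77, 631.08 and 182.72. Ezh2 scored lowest at the 2 end sites, and both proteins scored highest at the fifth site. Centres were 0 to 254 bp apart, and in 3 of the sites they were within 22 bp. No rescue G9a peak touched any of the 6, and the gaps to the nearest ran from 4114 to 13683 bp. On chromosome 8 as a whole, 33 of 138 sites (23.9%) had rescue G9a. The second group, 4 sites at chr8:80942613-80955946, differed from the first. Its library 1 scores were 43.51, 47.94, 59.75 and 103.28, a knockout or library 0 peak lay 2310 bp away, and its last 2 sites shared a G9a peak (score 186.21) and a rescue peak (219.19).

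Of the sites that ranked highest for both proteins, most had a rescue G9a peak, a share near that of strong G9a peaks elsewhere. The 10 with the lowest mean rank of Ezh2 and G9a scores had library 1 scores from 168 to 334.99 and wild-type G9a scores from 175.66 to 2114.11, and 8 of them had rescue G9a. In the highest score decile of the G9a list, from 105.19 up, 75.9% of the G9a peaks away from library 1 Ezh2 peaks were found in the rescue. The other 2 were sites 4 and 5 of the chromosome 8 group, and site 5 ranked first of all. The second was at chr13:54851106-54852468, with an Ezh2 score of 265.39, a wild-type G9a score of 968.96 and a rescue score of 1451.12. Its G9a and Ezh2 centres were 517.5 bp apart, and the nearest library 0 and knockout Ezh2 peaks were 198397 and 14196 bp away. The third, at chr9:49148648-49149819, had scores of 243.66 for Ezh2, 565.69 for wild-type G9a and 543.1 for the rescue, and lay wholly inside its G9a peak.

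The strongest G9a peak at any of the sites was on chromosome 19. This site, from 4988955 to 4990144, had an Ezh2 score of 182.55, a wild-type G9a score of 2114.11 and a rescue score of 1952.79. Another library 1 peak began 21 bp away, while library 0 and the knockout had no Ezh2 peak within 275758 and 77917 bp. At chr11:55420576-55422229 the scores were 182.28, 837.52 and 968.99, and at chr6:113143351-113144335 they were 168, 622.04 and 496.58. The remaining sites of the 10 were chr9:62998514-62999800, chr6:121422932-121425256 and chr1:84691247-84693865. The one on chromosome 9 was an edge case of the Ezh2 rule, with library 0 and knockout peaks 155 and 58 bp away. In the other 9 the nearest Ezh2 peak of either list was at least 14196 bp off.

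The 5 widest sites had G9a scores on both sides of the median of 36.84 over all Ezh2-G9a sites. They ran from 3012 to 3760 bp in width, with library 1 scores from 208.19 to 643.42 and wild-type G9a scores of 21.09, 29.87, 51.26, 35.68 and 27.44, of which 1 was above that median. Over all 1158 sites, the widths of the Ezh2 peak and of its G9a peak had a Spearman rank correlation of 0.30. The highest Ezh2 score of any site, 643.42, was at chr2:105526906-105530020, where the G9a peak was 451 bp wide and the nearest knockout Ezh2 peak was 2273 bp away. The widest site of all was at chr1:167976380-167980139, with an Ezh2 score of 542.04 and no rescue G9a. Rescue G9a was called at 2 of the 5.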

How the data were processed

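The data were 5 deposited ChIP-seq peak lists, 1 for each of the Ezh2 and G9a libraries. Groups were taken from the sample titles, and the 3 inputs were not used here. The source name of the knockout Ezh2 sample lists TT2 only; its title was used. Per the labels' protocols, cells were fixed with 1% formaldehyde for 10 min, after a first fixation of the G9a samples with the protein crosslinker DSG at 2 mM for 45 min; 15 PCR cycles followed. Bowtie 0.12.7, MACS 1.4 and mm9 are named in the submitters' processing notes. The design text says that pooled wild-type inputs were the control for Ezh2 and G9a, without saying whether this covers the knockout and rescue lists. Column 5 of each deposited list is the score that the authors' peak caller gave, in MACS -10 times the log10 of a p-value. The threshold for calling was not given in the sources used here. Scores were compared within a list, except that the lowest scores of the lists, whose scales may differ, are set side by side. Intervals of a difference combine those of its groups.

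Overlap meant at least 1 bp. Positions are 1-based. Deciles were taken over library 1-only peaks, or over all wild-type G9a peaks. Medians, shares and exact binomial intervals were computed with Python 3.11.15, pandas 2.3.3, numpy 2.4.6 and scipy 1.17.1, and figures with matplotlib 3.10.9. On 11593 simulated peaks with 1049 planted sites, the rule gave 0 wrong calls. Sites named were the 10 with the lowest mean rank of Ezh2 and G9a score, the 5 widest, the largest group and richest block, and the 3 nearest each side of the overlap limit; the second group, the chromosome sets and the sites singled out by highest score were chosen after their values were seen. No mm9 genome or annotation was used here, so no gene or sequence is given. The sites and comparisons were chosen with earlier results of these data known.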

Additional observations from a re-analysis of the deposited data

How the results depend on the processing

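No paired analysis was possible because each comparison set peaks within the lists of single libraries against each other, and library numbers pair no samples there. The lists hold no read counts, so weak peaks limit most values: 495 of the 1158 sites scored under 43.03. With leaving out chromosomes 1, 8 and 11, and for all differences between sites and peaks lacking G9a, the alternatives were chosen after seeing the data. The cause of the shifts below was not tested, except that stricter limits keep fewer peaks by construction. Rescue G9a stayed more frequent at the sites in all 11 alternatives (by 27.8 to 36.4 points), the sites stayed wider in all 11 (by 53 to 179 bp) and the difference in library 1 neighbours within 10 kb stayed below 0 (-10.9 to -1.75 points), but its interval included 0 in 4 of the 11: gaps of up to 1 kb (-4.60 to 0.86), G9a scores of at least 50 (-9.75 to 0.32) or 100 (-10.9 to 3.69), and merged peaks (-4.72 to 1.35). The interval of the difference in median Ezh2 score lay above 0 in 8 and included 0 in 3: Ezh2 scores of at least 50 (-1.43 to 12.1) or 100 (-11.4 to 16.4), and G9a scores of at least 100 (-3.85 to 1.87), where the difference reversed.

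With G9a scores of at least 100 in both G9a lists, 195 sites were left (2.31% of library 1-only peaks) and the score difference reversed to -1.19 (main value 4.10). Their median Ezh2 score was 42.76, the centre distance 359 bp, the rescue share 36.9% (35.7 points above peaks lacking G9a), the share of their G9a peaks found in the rescue 37.4%, and the share with a library 1 neighbour 52.3% (-3.57 points). With G9a scores of at least 50, there were 415 sites (4.92%), with a score difference of 2.21, a centre distance of 309.5 bp and a rescue difference of 36.4 points. At these limits the peaks lacking G9a numbered 8232 (at 100) and 8012 (at 50), against 7269 in the main setting. They include peaks whose wild-type G9a peaks all scored below the limit.

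With Ezh2 library 1 scores of at least 50, there were 536 sites (15.3%), with a median score of 90.87, a width of 1001.5 bp (126.5 bp wider), a centre distance of 292 bp, a rescue share of 45.1% and a neighbour share of 45.9% (-10.9 points). With scores of at least 100 the values were 236 sites (16.5%), 158.04, 1344 bp, 347.25 bp, 46.2% and 33.9%, and 47.4% of the G9a peaks were found in the rescue.

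When overlap had to cover 50% of the shorter peak, the G9a share was 10.97%, the centre distance 176 bp, the rescue share 36.4% and the share of G9a peaks found in the rescue 39.2%. With gaps of up to 1 kb allowed these were 23.8%, 547.5 bp, 50.4% and 51.5%, with a median score of 45.05, a width of 593 bp and a neighbour difference of -1.87 points. With library 1 peaks within 1 kb merged, the G9a share was 16.4%, the width 716 bp (179 bp wider), the score difference 7.25, the centre distance 278.25 bp and the neighbour share 23.5% (-1.75 points).

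Without chromosomes 1 and 8 the G9a share was 11.99%, the rescue share 48.8% (36.0 points above) and the share of G9a peaks found in the rescue 51.0%. Without chromosome 11 as well, there were 667 sites (10.998%), with a width of 588 bp (53 bp wider), a rescue share of 48.7% (36.3 points above), 50.2% of G9a peaks found in the rescue and a neighbour share of 52.8%.

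Without library 0 or without the knockout in the rule, the count was 1247 to 1308, the G9a share 13.9% in both, the median score 49.43 to 51.85 and the width 664 to 695 bp.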

Other observations

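Rescue G9a alone was called at 818 library 1-only Ezh2 peaks, both G9a lists at 470, wild-type G9a alone at 688 and neither at 6451. Peaks with rescue G9a alone had a median Ezh2 score of 51.6 and a median width of 603.5 bp, close to the 51.82 and 660.5 bp of peaks with both. Peaks with neither had 42.48 and 536 bp. An Ezh2 peak of library 0 or the knockout lay within 10 kb of 27.4% of peaks with both G9a lists, 25.7% with wild-type G9a alone, 29.2% with rescue G9a alone and 33.7% with neither.

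Chromosome X, outside the rule, had 172 library 1 Ezh2 peaks, of which 115 were in library 1 alone and 3 of those overlapped wild-type G9a. Chromosome Y had 1 library 1 peak, without G9a.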
